A study of Mus musculus with 6 samples.

Results

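The metalloproteinases of the ADAM, ADAMTS and MMP families, the ADAMTS-like (ADAMTSL) proteins and the TIMP inhibitors were examined in white adipose tissue (WAT) of mice that lack neurotensin receptor 2 (Ntsr2) in adipocytes. Members were all genes whose symbol is Adam, Adamts, Adamtsl, Mmp or Timp followed by a number and an optional letter, provided that the normalized count averaged 10 or more over the 6 mice. They were thus chosen by symbol and by mean level. A normalized count is a gene's read number scaled by 1 size factor per library. Of 21456 genes in the table, 68 carried such a symbol and 58 passed the minimum: 16 ADAM, 18 ADAMTS, 5 ADAMTSL, 15 MMP and 4 TIMP genes. Adam33 was singled out because its difference between the genotypes was known from earlier results, so its values are a description and are not tested. The members just inside the minimum were Adamts17, Adamts8 and Adamts19, with means of 12.2, 13.9 and 15.0. Adam32, Adam2 and Adam21, with means of 8.34, 7.58 and 6.83, were just outside it. Adam6b, Adam18, Adam29, Adamts13, Mmp10, Mmp16 and Mmp21 lay lower still.

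Matrix metalloproteinases (MMPs) are zinc enzymes that cut collagens, elastin, proteoglycans and other components of the extracellular matrix, and TIMPs block them by binding the zinc site. ADAMs sit in the cell membrane, where the active ones release the outer part of cytokines, growth factors and receptors, whereas ADAMTS enzymes are secreted and act on matrix proteoglycans, procollagens and fibrillin-rich fibres. In fat, this network reshapes the pericellular matrix as adipocytes enlarge and vessels grow, and its transcripts come mostly from fibroblasts and progenitors, macrophages, vessels and adipocytes.

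RNA-seq was performed on adipose tissue of chow-fed mice, with 3 Ntsr2 flox/flox animals as controls and 3 Adipoq-cre::Ntsr2 flox/flox animals as the Ntsr2 AKO group. All 6 mice carried the floxed Ntsr2 alleles, and the Adipoq-driven Cre of the Ntsr2 AKO mice acts in adipocytes, which leaves the gene in other cells of the tissue. Age, sex and the fat depot are not given in the sources used here for these libraries, and the labels do not say that each came from a separate animal, although they are called mice below. Any p-value therefore measures only the spread between these samples.

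Libraries of the controls held 60405373 to 66098226 recovered reads, and those of the Ntsr2 AKO mice 54085088 to 56268725. Ntsr2 had normalized counts of 83.8, 64.0 and 153 in controls against 3.10, 8.29 and 0 in Ntsr2 AKO mice, with no overlap. All 10 adipocyte markers were present, with summed normalized counts from 2863689 to 4142032. Control 3 stood apart in the adipocyte marker Lep, with 67722 against 5997 to 17222 in the others. Its sums were also the highest for 8 lymphocyte markers (1435 against 268 to 486) and 6 epithelial markers (278 against 34.2 to 45.4). Control 3 was the highest mouse for 15 members (it was for 18.8% of all genes). The part of tissue content in these values was not tested. Skeletal muscle markers (10 genes) summed to 2620369 in control 5, 190015 in Ntsr2 AKO 5 and 87131 in Ntsr2 AKO 4, against 3061 to 3625 in the other 3 mice. The 10 fibroblast and progenitor markers summed to 154402, 211513 and 218981 in controls and to 177748, 170204 and 327209 in Ntsr2 AKO mice. For 7 macrophage markers the sums were 27514, 80783 and 51272 in controls and 41281, 30490.0 and 68111 in Ntsr2 AKO mice, so these groups overlapped. In bulk tissue, fewer cells of a type and less RNA per cell cannot be told apart.

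The sequences below are the zinc-binding stretch of the members on which the comparison turned, with the ADAMs Adam19 and Adam12 for comparison. The stretch has 11 codons (33 bases), and the capitals mark the codons of the 3 zinc-binding histidines, at codons 1, 5 and 11. They were read 5′ to 3′ on the coding strand from GENCODE release M21 on GRCm38.
Adam33: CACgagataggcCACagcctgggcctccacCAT
Adam19: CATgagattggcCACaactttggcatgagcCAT
Adam12: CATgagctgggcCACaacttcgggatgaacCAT
Adam8: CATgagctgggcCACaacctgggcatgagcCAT
Adamts1: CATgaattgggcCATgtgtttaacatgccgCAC
Adamts4: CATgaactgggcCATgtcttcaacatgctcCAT
Mmp19: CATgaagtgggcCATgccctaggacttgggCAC
Mmp27: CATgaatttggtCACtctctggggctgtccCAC
The stretch of Adam33 lies in exon 11 of 21, at chr2:131055130-131055162 on the minus strand, and covers residues 346 to 356 of 797. In the other ADAMs printed it also fell in exon 11: chr11:46125050-46125082 on the plus strand in Adam19, chr7:133961158-133961190 on the minus strand in Adam12 and chr7:139987893-139987925 on the minus strand in Adam8. In Adamts1 (chr16:85799191-85799545 on the minus strand) and Adamts4 (chr1:171253210-171253915 on the plus strand) it is split by the intron between exons 3 and 4. The stretches of Mmp19 and Mmp27 lie at chr10:128795673-128795705 on the plus strand and chr9:7577326-7577358 on the plus strand.

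The zinc-binding stretch, written as HE, any 2 residues, H, any 5 residues and H, was encoded by 43 of the 58 members. All 15 MMP and all 18 ADAMTS members and 10 of 16 ADAM members held it. The ADAMs without it were Adam3, Adam4 and Adam5, known from sperm, and Adam11, Adam22 and Adam23, which act as adhesion and receptor proteins. None of the 5 ADAMTSL and 4 TIMP members held it. Residue 8 of the stretch was glycine in 37 members, asparagine in 5 (Adamts1, Adamts4, Adamts9, Adamts15 and Adamts20) and serine in 1 (Adamts8). Those 6 are proteoglycan-cleaving ADAMTS members, and the remaining one, Adamts5, had glycine.

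Levels were compared between genes as normalized count per kb of exon, averaged over the 6 mice. On this scale Timp2 was the highest member (5522), followed by Mmp3 (3999), Mmp2 (3659), Timp3 (2543), Mmp19 (2290.0) and Timp4 (2012). The highest ADAM members were Adam9 (1548) and Adam15 (1381), which together with the sheddases Adam10 (643) and Adam17 (380.3) stood above Adam12 (299) and Adam33 (219). Among ADAMTS members, the aggrecanase Adamts5 (812), Adamts1 (725) and the procollagen N-proteinase Adamts2 (581) were highest, and Adamtsl4 (314) was the highest ADAMTSL member. Each of the 4 TIMP genes therefore lay among the 9 highest members, and the lowest members were Adamts19 (1.07) and Adamts17 (1.58). Exons of 16 members overlap another gene, among them Adam8, Adam15, Adamts4, Mmp19 and Timp3, and the library kit is not stated to keep strand, so their reads may include those of the partner.

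**Figure D1:**
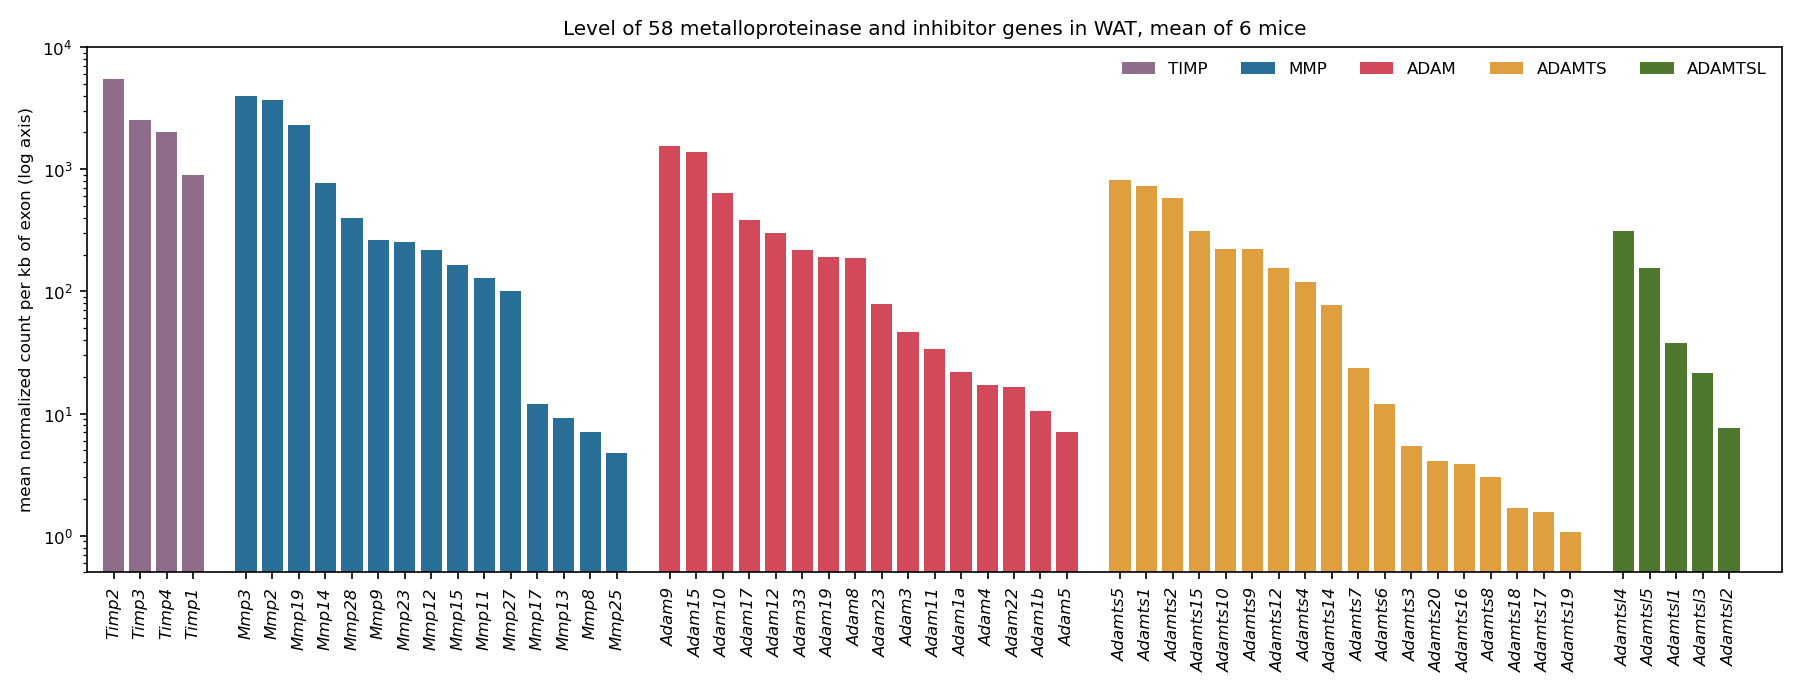
Mean normalized count per kb of exon (log axis) over 6 mice for each of the 58 members, one bar per gene, coloured by family and ordered by level within it. Timp2 (5522), Mmp3 (3999) and Mmp2 (3659) were the highest bars, and Adam33 (219) was number 6 of the 16 ADAM bars.

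Adam33, a membrane-anchored metalloproteinase of mesenchymal cells that is best known as an asthma susceptibility gene, was higher in every Ntsr2 AKO mouse. Its normalized counts were 784, 519 and 596 in controls against 1428, 1813 and 1940.1 in Ntsr2 AKO mice. The lowest Ntsr2 AKO mouse thus lay above the highest control mouse. Means were 633 ± 136 in controls and 1727 ± 267 in the Ntsr2 AKO group (SD, n = 3 each, as for all means below), a 2.73-fold difference, and the log2 fold change was 1.46 ± 0.20 (SE). Without control 5, Ntsr2 AKO 4 and Ntsr2 AKO 5, the mice with skeletal muscle transcripts, the log2 fold change was 1.16.

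Within the family, the level of Adam33 per kb ranked 24 of 58 members and 6 of 16 ADAM members, next to Adamts9 (220.2) and Mmp12 (217). Its log2 fold change was number 2 from the highest of the 58, after Mmp27, and its spread between mice of 1 genotype, an SD of 0.27 on the log2 scale, ranked 11 from the lowest, against a median of 0.52 over the members. By protein sequence its nearest relative was Adam19, with 44.3% identical residues over the shorter protein, followed by Adam12 (43.4%), Adam15 (38.1%) and Adam8 (36.0%), and the most distant of the 15 other ADAM members was Adam17 (23.3%). Adam19, or meltrin beta, had normalized counts of 1276, 1721 and 1165 in controls against 1134, 1290.5 and 1588 in Ntsr2 AKO mice. Adam12, or meltrin alpha, had 1132, 4400.1 and 2768 in controls against 2768, 2020.2 and 5855 in Ntsr2 AKO mice. The groups of these nearest relatives overlapped, and those of Adam8 were separate in the opposite direction.

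Adam33 lies at chr2:131050591-131063814 on the minus strand. Of the 15 other tested genes within 250 kb on either side, 12 had a log2 fold change above 0 and 3 below it, where 51.0% of all genes were below 0. The groups did not overlap for 4 of them, all higher in Ntsr2 AKO mice (6.82% of all genes were higher without overlap, and 8.16% lower): Cdc25b (0.89), a cell cycle phosphatase, Ap5s1 (0.43), Gfra4 (0.36) and Pank2 (0.12). The window was placed around a gene known to be higher, so these values are given as a description.

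**Figure D2:**
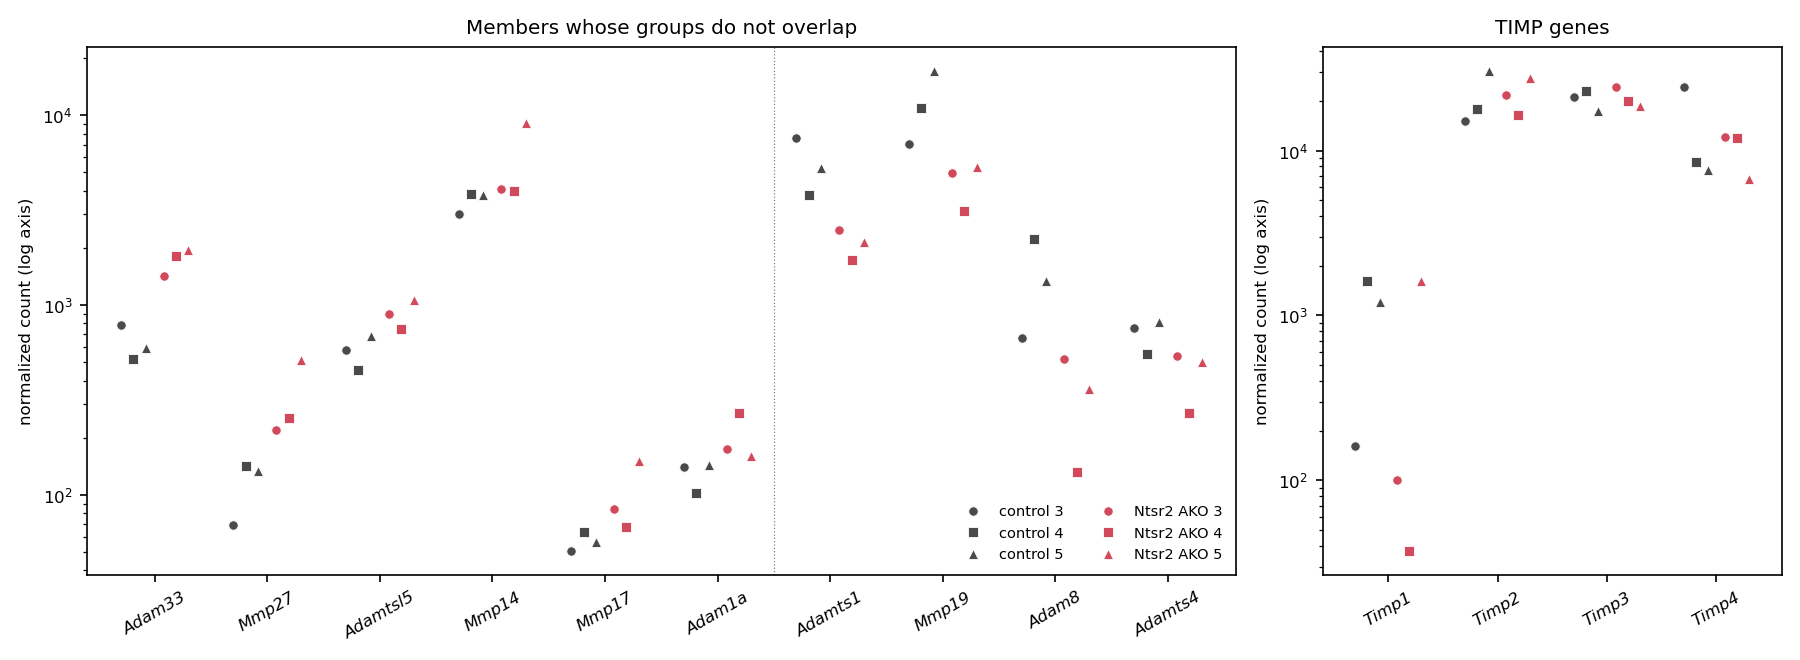
Normalized counts (log axis) of each mouse for the 10 members whose groups do not overlap, 6 higher and 4 lower in Ntsr2 AKO mice, and for the 4 TIMP genes. Points are mice, grey for control and red for Ntsr2 AKO, with a symbol for each number, and Timp1 spread from 37.3 to 1624.

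The comparison of Ntsr2 AKO with control mice asked which members differed when adipocytes lack the receptor. By limma with Benjamini-Hochberg adjustment over 16157 genes, 0 of 58 members passed an adjusted p of 0.05, and 1 gene of all tested (0.00619%) did, the immediate early transcription factor Egr1. At an unadjusted limma p under 0.05, 4 members were lower (Adamts1, Mmp19, Adam8 and Adamts4) against a background of 5.27% of all genes, and 3 were higher (Adam33, Mmp27 and Adamtsl5) against 3.08%. These shares, 6.90% and 5.17% of the members, are near the background, and Adam33 was chosen for its place among the higher ones, which leaves 2. The background itself moved with the scaling, with 852 genes lower and 497 higher as deposited and 612 and 633 after quantile normalization, under which the same 7 members were counted. Groups did not overlap for 4 members lower in Ntsr2 AKO mice (background 8.16%) and for 6 higher (background 6.82%), the latter adding Adam1a, Mmp14 and Mmp17 to the 3 above. Without Adam33 these are 4 (7.02%) and 5 (8.77%) of 57 members, near the background. On the recovered reads, edgeR called 0 members (0.0% of all genes), with 3 lower (background 4.9%) and 4 higher, 3 of them other than Adam33 (background 3.29%), at an unadjusted p under 0.05. Among the 57 members it tested, DESeq2 called Adamts1, Mmp19 and Adam8 lower, a larger share than the background of 0.964%. The members were chosen with earlier results of these data known, so this share is a description. DESeq2 also called Adam33, which was chosen for this difference, and 0 of the other 56 were called higher (background 0.416%). The median log2 fold change was 0.06 over the members and -0.01 over all genes, and 26 of 58 members (44.8%) had a value below 0, against 51.0% of all genes.

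**Figure D3:**
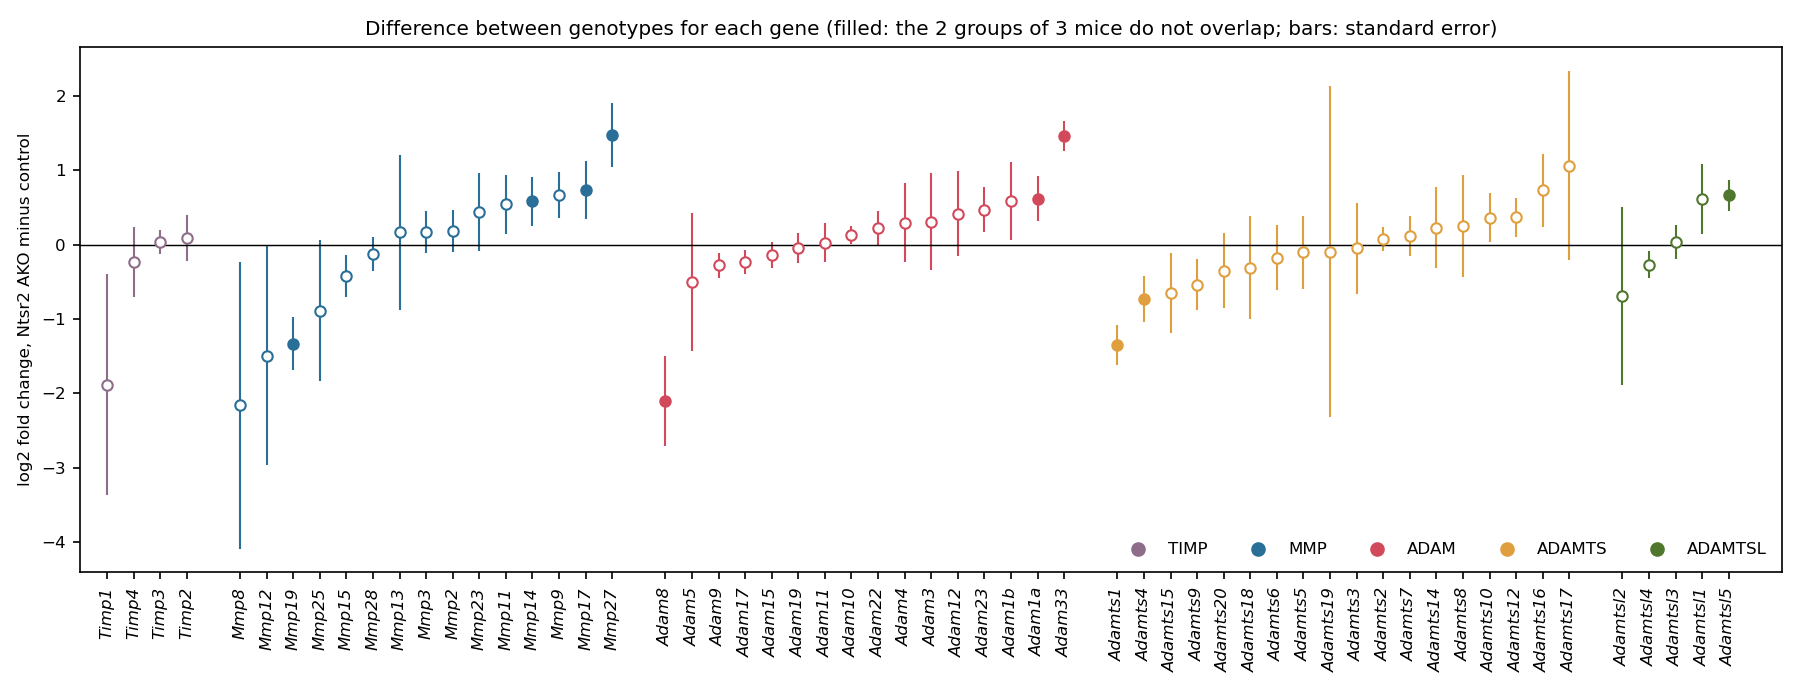
Log2 fold change of Ntsr2 AKO over control mice with its SE for the 58 members by family. Filled points mark the 10 members whose groups do not overlap, and the values ran from -2.16 for Mmp8 to 1.47 for Mmp27. Mmp8 had few reads and was at 0 in control 3, Ntsr2 AKO 4 and Ntsr2 AKO 5.

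Among ADAMTS members, Adamts1 had the lowest log2 fold change. It is a secreted protease that cuts versican and aggrecan and restrains vessel growth. Its normalized counts were 7610.3, 3801 and 5286 in controls against 2483, 1736 and 2135 in Ntsr2 AKO mice, so every Ntsr2 AKO mouse lay below every control mouse. The means, 5566 ± 1920.2 in controls and 2118 ± 374 in the Ntsr2 AKO group, were 2.63-fold apart, and the log2 fold change was -1.35 ± 0.27 (limma adjusted p = 0.499). It fell in the DESeq2 test on the recovered reads (adjusted p = 0.000739), and over all alternatives its adjusted p ran from that value to 1. Without the 3 mice with skeletal muscle transcripts the log2 fold change was -1.11.

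Adamts5, its neighbour 53.1 kb away on chromosome 16 and the major aggrecanase of mouse cartilage, had 16803, 3835 and 8732 in controls against 6856, 7221 and 9145 in Ntsr2 AKO mice. Its groups overlapped, and control 3 was the highest mouse for both genes. Adamts4, the other classical aggrecanase, had 754, 549 and 809.6 in controls against 541, 269 and 500.0 in Ntsr2 AKO mice. These groups did not overlap, and its log2 fold change was -0.73 ± 0.31 (limma adjusted p = 0.594). It was -0.42 without Ntsr2 AKO 4 and -0.25 without the 3 mice with skeletal muscle transcripts. Of the 7 proteoglycan-cleaving members, 6 had a log2 fold change below 0 (51.0% of all genes did), with a median of -0.54 against -0.01 over all genes. Adamts1 and Adamts4, counted above, were those without overlap (8.16% of all genes were lower without overlap). The other members were Adamts15 (-0.65), Adamts9 (-0.54), Adamts20 (-0.35) and Adamts8 (0.25), with overlapping groups.

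The procollagen N-proteinases Adamts2, Adamts3 and Adamts14, which trim collagen precursors, had log2 fold changes of 0.07, -0.05 and 0.23. Adamts7 and Adamts12, which cut cartilage oligomeric matrix protein, had 0.12 and 0.37. The fibrillin-associated members Adamts10, Adamts6, Adamts17 and Adamts19 ranged from -0.18 to 1.06. Adamts19 was at 0 in 4 of the 6 mice, which allows up to 3 reads each, so it gives no usable difference. For Adamts16 and Adamts18, whose roles are less clear, the values were 0.73 and -0.31. None of these members had groups without overlap.

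Adamtsl5, a fibrillin-binding protein without protease domain, had normalized counts of 577, 455 and 689 in controls against 896, 749 and 1064 in Ntsr2 AKO mice. The groups were separate and the log2 fold change was 0.66 ± 0.21 (limma adjusted p = 0.546; DESeq2 adjusted p = 0.200). Adamtsl4, the highest ADAMTSL gene and also a fibrillin partner, had 1707, 1199.8 and 1421 in controls against 1377, 1026 and 1176 in Ntsr2 AKO mice, with overlap. Adamtsl1, Adamtsl2 and Adamtsl3 had log2 fold changes of 0.61, -0.69 and 0.04, and Adamtsl2 was highest in control 3 (257).

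Mmp19, which cuts basement membrane components and is made by macrophages and stromal cells, was the MMP with the clearest lower value in Ntsr2 AKO mice. Its normalized counts were 7074, 10930.5 and 17086 in controls against 4988, 3125 and 5342 in Ntsr2 AKO mice. Control 5 was the highest and Ntsr2 AKO 4 the lowest, and the groups did not overlap. The means, 11697 ± 5049.8 in controls and 4485 ± 1191 in the Ntsr2 AKO group, were 2.61-fold apart, with a log2 fold change of -1.33 ± 0.35 (limma adjusted p = 0.522). DESeq2 gave an adjusted p of 0.0134, with a range up to 1 over the alternatives. The log2 fold change was -0.82 without the 3 mice with skeletal muscle transcripts.

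Mmp27, a little-studied member that lies 2.91 kb from Mmp8 in the Mmp cluster on chromosome 9, had normalized counts of 69.0, 142 and 134 in controls against 219, 254 and 511 in Ntsr2 AKO mice. Each Ntsr2 AKO mouse lay above each control mouse, with Ntsr2 AKO 5 the highest. The log2 fold change was 1.47 ± 0.43 (limma adjusted p = 0.523; DESeq2 adjusted p = 0.0677). It was 1.10 without Ntsr2 AKO 5 and 1.13 without the 3 mice with skeletal muscle transcripts. The cluster also holds Mmp3, Mmp12, Mmp13 and Mmp8 among the members, with log2 fold changes of 0.17, -1.49, 0.16 and -2.16 and overlapping groups. Mmp8 was at 0 in control 3, Ntsr2 AKO 4 and Ntsr2 AKO 5. Its log2 fold change ran from -3.93 to 1.82 over the alternatives, so it gives no usable difference.

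Mmp14, the membrane protease MT1-MMP that cuts collagen around adipocytes and activates pro-Mmp2, had 3001, 3864 and 3810.3 in controls against 4084, 3989.5 and 9057 in Ntsr2 AKO mice. Mmp17, anchored in the membrane by a lipid, had 50.6, 64.0 and 56.6 in controls against 84.6, 67.4 and 151 in Ntsr2 AKO mice. The groups of both were just separate, and Ntsr2 AKO 5, the mouse with the highest sum of fibroblast and progenitor markers, was well above the others. The log2 fold changes were 0.58 ± 0.32 and 0.73 ± 0.39 (limma adjusted p = 0.660 and 0.640), and without Ntsr2 AKO 5 they were 0.19 and 0.40. The part of fibroblast content in these values was not tested. Over all 58 members, Ntsr2 AKO 5 was the highest mouse for 18 (it was for 19.7% of all genes), among them Mmp2, Mmp3, Mmp14, Adam12 and Timp1.

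The gelatinases cleave denatured collagen and basement membrane. Mmp2 had normalized counts of 8697, 13134 and 12368 in controls against 11176, 9743 and 18879.9 in Ntsr2 AKO mice, and the groups overlapped. Mmp9 had 819, 599 and 692 in controls against 1669, 1140.2 and 717 in Ntsr2 AKO mice, with a log2 fold change of 0.67 ± 0.31 (limma adjusted p = 0.616), and Ntsr2 AKO 5 lay within the control range. Mmp12, the macrophage elastase, had 524, 2317 and 2637 in controls against 2888, 47.7 and 1027 in Ntsr2 AKO mice. It varied 60.6-fold between mice, the widest range of the 55 members above 0 in every mouse, with Ntsr2 AKO 3 highest and Ntsr2 AKO 4 lowest. The neutrophil enzymes Mmp8 and Mmp25 had few reads, with means of 28.7 ± 31.5 in controls and 5.51 ± 9.54 in the Ntsr2 AKO group for Mmp8 and 36.0 ± 27.3 in controls and 14.3 ± 7.02 in the Ntsr2 AKO group for Mmp25. The remaining MMPs, Mmp11, Mmp15, Mmp23 and Mmp28, had log2 fold changes of 0.54, -0.42, 0.44 and -0.13, with overlapping groups.

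Adam8, a leukocyte sheddase that cleaves adhesion proteins and receptors, had normalized counts of 668, 2226 and 1344 in controls against 520.2, 133 and 360.3 in Ntsr2 AKO mice. All Ntsr2 AKO mice lay below the lowest control mouse, but values within a genotype differed widely. The means were 1413 ± 781 in controls and 338 ± 195 in the Ntsr2 AKO group, with a log2 fold change of -2.11 ± 0.61 (limma adjusted p = 0.522). DESeq2 called it lower with an adjusted p of 0.0209, and the adjusted p reached 1 in other alternatives; the log2 fold change was -1.23 without the 3 mice with skeletal muscle transcripts. The 6 neutrophil markers summed to 433, 563 and 884 in controls and 230.2, 132 and 545 in Ntsr2 AKO mice, and Ly6g was at 0 in 5 of the 6 mice. The neutrophil sums overlapped between the genotypes (control 3 lay below Ntsr2 AKO 5), as did the macrophage sums given above. Each tested neutrophil marker was lower in Ntsr2 AKO mice by log2 fold change. The values were -1.27 for S100a8, -1.89 for S100a9, -1.37 for Retnlg, -0.96 for Csf3r and -3.26 for Cxcr2. The groups of S100a8 and Retnlg did not overlap (8.16% of all genes were lower without overlap). Ntsr2 AKO 4 had the lowest Adam8 and the lowest neutrophil sum, and control 3 the lowest macrophage sum. Adam8 and the macrophage sum were highest in control 4, and the neutrophil sum in control 5. Among Ntsr2 AKO mice, Adam8 was highest in Ntsr2 AKO 3 and both sums in Ntsr2 AKO 5. The part of leukocyte content in the Adam8 difference was not tested.

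The most abundant ADAM members had overlapping groups. Adam10, the constitutive sheddase, had means of 3016 ± 204 in controls and 3300.4 ± 318 in the Ntsr2 AKO group and the narrowest range of any member above 0 in every mouse, 1.27-fold from the lowest to the highest mouse. Adam17, which releases TNF, had means of 2930.0 ± 285 in controls and 2511 ± 428 in the Ntsr2 AKO group. Adam9 had 7018 ± 1294 in controls and 5725 ± 521 in the Ntsr2 AKO group, and Adam15 had 9873, 8846 and 7857 in controls against 9543, 8419 and 6364 in Ntsr2 AKO mice. The log2 fold changes of Adam10, Adam17, Adam9 and Adam15 were 0.13, -0.23, -0.28 and -0.14.

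Adam1a, a chain of the sperm protein fertilin, had 141, 102 and 144 in controls against 173, 271 and 161 in Ntsr2 AKO mice, without overlap (log2 fold change 0.62 ± 0.30, limma adjusted p = 0.617), and the log2 fold change was 0.39 without Ntsr2 AKO 4. Its exons overlap those of Mapkapk5, Tmem116 and Gm42878 and its sequence is close to that of Adam1b (0.58), so its reads are uncertain. The inactive ADAMs Adam11, Adam22 and Adam23 had log2 fold changes of 0.03, 0.23 and 0.47, and Adam3, Adam4 and Adam5 had 0.31, 0.29 and -0.51, with overlapping groups.

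Of the 4 TIMP genes, 0 passed the unadjusted p of 0.05 and all overlapped between the genotypes. Against a background of 5.27% lower and 3.08% higher, a count of 0 among 4 genes says nothing particular to the inhibitors. Timp1, the inducible secreted inhibitor, had normalized counts of 161, 1614 and 1206 in controls against 100.1, 37.3 and 1624 in Ntsr2 AKO mice. It varied 43.5-fold, was low in control 3, Ntsr2 AKO 3 and Ntsr2 AKO 4 and high in the other 3 mice, and had a log2 fold change of -1.88 ± 1.48. Without Ntsr2 AKO 5 it was -3.45, and Timp1 then passed an unadjusted limma p of 0.05. Timp2, the partner of MT1-MMP in activating pro-Mmp2, had 15057, 17959 and 30347 in controls against 21676, 16344 and 27704 in Ntsr2 AKO mice. Timp3, which binds the matrix and inhibits Adam17, had 20999, 22963 and 17407 in controls against 24266, 20037 and 18605 in Ntsr2 AKO mice. Timp4, which is abundant in fat and heart, had 24331, 8465 and 7619 in controls against 12152, 11868 and 6712 in Ntsr2 AKO mice, with control 3 well above the others. The log2 fold changes of Timp2, Timp3 and Timp4 were 0.09 ± 0.31, 0.04 ± 0.16 and -0.23 ± 0.47.

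Summed per kb of exon, the 15 MMP genes reached 12533 ± 3155 in the controls and 12029 ± 3374 in Ntsr2 AKO mice, and the TIMP genes 11337 ± 1074 and 10597 ± 1829. The ratio of the MMP to the TIMP sum was 0.833, 1.28 and 1.19 in controls and 1.04, 1.05 and 1.27 in Ntsr2 AKO mice. The ADAM sum was 5258 ± 45.0 against 4906 ± 237, with no overlap, and the ADAMTS sum 3757 ± 1012 against 2805 ± 408, with overlap. Adam9 and Adam15 made up 30.5% and 27.2% of the ADAM level per kb, and the groups of each overlapped. The ADAM sum therefore mostly follows a few abundant genes and does not describe the family gene by gene. No background share was computed for such sums. The ADAMTSL sums were 528 ± 89.1 and 546 ± 73.8.

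Genes around the family were counted in 4 lists. Of 15 tested activators and regulators, 1 was lower at an unadjusted p under 0.05 (background 5.27%) and 0 were higher (background 3.08%), shares near the background. The gene was Rhbdf2, which encodes the iRhom2 partner of Adam17, with 1388, 1101 and 1599 in controls against 973, 770.1 and 544 in Ntsr2 AKO mice, no overlap and a log2 fold change of -0.86 ± 0.25 (limma adjusted p = 0.522; DESeq2 adjusted p = 0.113). Rhbdf1, for the related iRhom1, had -0.40, and the proprotein convertase Furin had -0.44, both with overlap. Reck, a membrane inhibitor of MMPs, had 419, 334 and 459 in controls against 467, 562 and 893 in Ntsr2 AKO mice, higher in every Ntsr2 AKO mouse (log2 fold change 0.62 ± 0.27, limma adjusted p = 0.600). Tfpi2, a serine protease inhibitor of the matrix, had 256, 260.0 and 339 in controls against 182, 64.3 and 247 in Ntsr2 AKO mice, lower in every Ntsr2 AKO mouse (log2 fold change -0.98 ± 0.49, limma adjusted p = 0.628). Groups were thus separate for 2 of the 15 genes in the lower direction and 1 in the higher, against 8.16% and 6.82% of all genes. Related zinc proteases (4 tested, among them Bmp1) and proteoglycan and fibrillin substrates (6 tested) had 0 at that threshold in either direction, but with the background of 5.27% and 3.08% lists of this size are too small to read anything from this. Versican (Vcan), a substrate of Adamts1, had means of 2740.2 ± 1020.2 in controls and 1549.7 ± 906 in the Ntsr2 AKO group with overlap.

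Membrane proteins known to be released by ADAMs, or cut by them, were the last list. The list was chosen with earlier results of these data known, so its counts are a description. Of 19 tested genes, 6 were lower in Ntsr2 AKO mice at an unadjusted limma p under 0.05 and 0 were higher, against the 5.27% and 3.08% of all genes. A log2 fold change below 0 was found for 15 (51.0% of all genes), with a median of -0.44 against -0.01 over all genes. None passed the adjusted threshold of limma, edgeR or DESeq2. In edgeR 5 were lower at an unadjusted p under 0.05. Tnfrsf1b, a TNF receptor, had 1901, 2071 and 1752 in controls against 1409, 1037 and 1289 in Ntsr2 AKO mice (limma adjusted p = 0.520; DESeq2 adjusted p = 0.0593). Il6ra, the IL-6 receptor, had 2333, 2095 and 2387 in controls against 1718, 1072 and 938 in Ntsr2 AKO mice (limma adjusted p = 0.522; DESeq2 adjusted p = 0.0635). For both, all Ntsr2 AKO mice lay below all control mice.

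Tnfrsf1a, the main TNF receptor, had a log2 fold change of -0.80 ± 0.23. Tnf itself, the substrate of Adam17, had -1.53 ± 0.49 from means of 63.4 ± 5.83 in controls and 23.5 ± 13.9 in the Ntsr2 AKO group. Kitl, for stem cell factor, had -0.45 ± 0.19, and the groups of these 3 genes did not overlap. Their limma adjusted p ran from 0.522 to 0.590. Cd44, the hyaluronan receptor, had 2230.0, 4967 and 3653 in controls against 1410.0, 562 and 2292 in Ntsr2 AKO mice, with overlap of control 3 and Ntsr2 AKO 5. Groups were also separate for Hbegf (-0.98) and Notch1 (-0.53), which made 7 of 19 lower without overlap (background 8.16%). The part of leukocyte content in the values of Tnf and Cd44 was not tested. Without the 3 mice with skeletal muscle transcripts, 15 of the 19 log2 fold changes were below 0, where the median over all genes was -0.002. That comparison sets 2 controls against 1 Ntsr2 AKO mouse, so it gives signs only and cannot show whether the calls at unadjusted p hold. Transcript levels say nothing of how much protein was released.

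**Figure D4:**
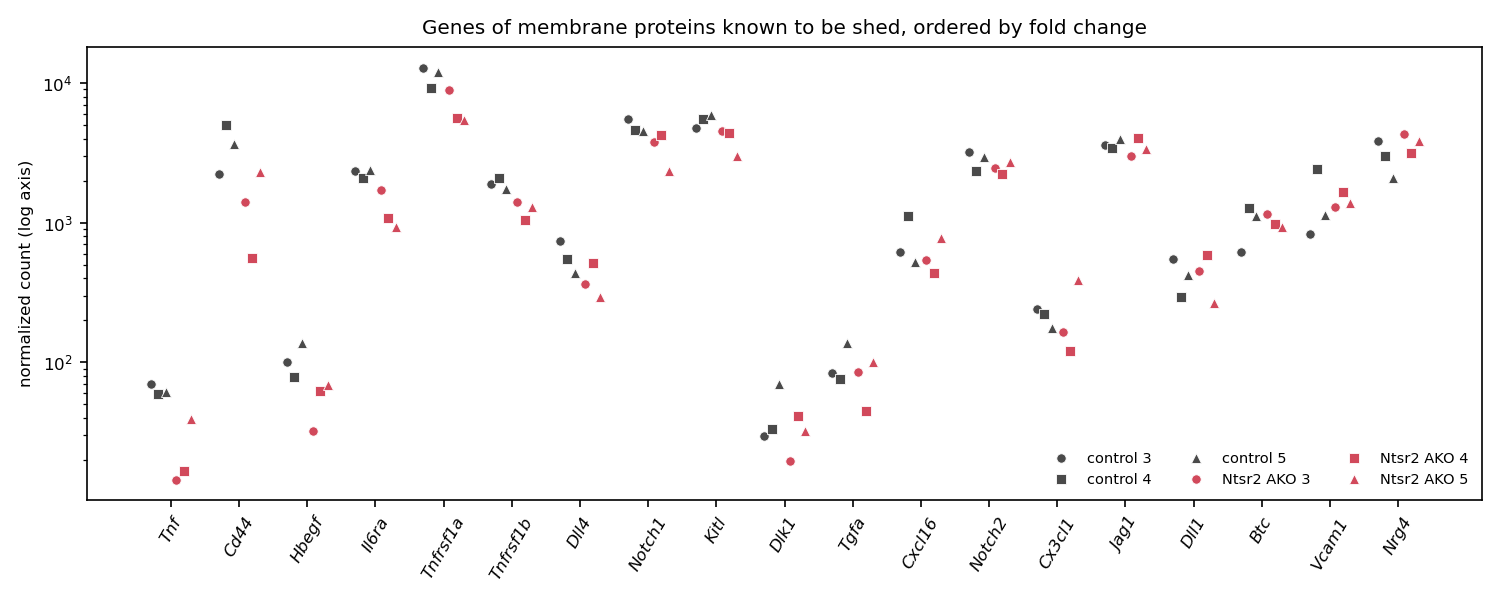
Normalized counts (log axis) of each mouse for the 19 tested genes of membrane proteins known to be cut, ordered by log2 fold change from Tnf (-1.53) to Nrg4 (0.38). Points are mice, grey for control and red for Ntsr2 AKO, and the groups do not overlap for 7 genes, all lower in Ntsr2 AKO mice.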

How the data were processed

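RNA from adipose tissue of 3 control and 3 Ntsr2 AKO mice was sequenced. Normalized counts (unit signal) of 21456 genes were deposited by the authors, made with Trimmomatic, HISAT2, StringTie and DESeq2. The submitters' processing notes name mm10 (HISAT2 and StringTie); versions and the annotation are not given in the sources used here. Low values in a column were multiples of 1 step, and dividing by it returned whole reads for 100% of values (tolerance 0.01), and 0 columns were left unused. Every pair of libraries differed by more than counting noise.

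Genes with a mean of at least 10 (16157 genes) were tested with limma 3.58.1 in R 4.3.3 on log2(normalized count + 1), with lmFit and eBayes with a trend over 6 mice, no covariate, Benjamini-Hochberg adjustment and a threshold of 0.05. Fold changes are on that scale. For genes that are low in some mice they can be larger or smaller in size than the DESeq2 value. Adamts17 had 1.06 against 0.41 in DESeq2, Timp1 -1.88 against -0.75 and Mmp25 -0.89 against -1.32. edgeR 4.0.16 (quasi-likelihood, TMM) and DESeq2 1.42.0 on the recovered reads were alternatives. DESeq2 gave no adjusted p for Adamtsl2. Other alternatives were pseudocounts of 0.1 and 5, a minimum mean of 50 or none, quantile normalization, TMM, eBayes without the trend, a replicate block and leaving out each mouse. A skeletal muscle covariate and the omission of 3 mice were added after seeing the data. Procedures were tested on simulated data. A gene on the list of membrane proteins is not reported here. The members and all lists were chosen with earlier results of these data known.

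Named with values in every mouse were Adam33, the TIMP genes, the highest member of each family by mean, and members with an unadjusted p under 0.05 or among the 3 smallest in each direction. Neighbour genes were named by an unadjusted p under 0.05. Other genes were chosen after their values were seen. All 58 members matched GENCODE release M21 on GRCm38, the build equivalent to mm10, which supplied lengths, positions and coding sequences. The longest coding transcript was translated and aligned globally with Biopython 1.88 (BLOSUM62). Counting error is small at this depth except for members with few reads, and precision is set by the 3 mice per group.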

Additional observations from a re-analysis of the deposited data

How the results depend on the processing

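Of 15 members followed through 18 alternatives, 255 of 270 log2 fold changes kept their sign and their side of the threshold, 4 passed it (Adam33, Adamts1, Mmp19 and Adam8 in DESeq2) and 11 changed sign. Changes of sign concerned members with overlapping groups. With single mice left out, Timp2 ran from -0.12 (without control 3) to 0.38 (without control 5), Timp3 ran from -0.076 (without control 5) to 0.12 (without control 4), Timp4 ran from -0.54 (without control 5) to 0.30 (without control 3), Mmp2 ran from -0.10 (without Ntsr2 AKO 5) to 0.37 (without Ntsr2 AKO 4), Adam15 ran from -0.27 (without Ntsr2 AKO 3) to 0.023 (without Ntsr2 AKO 5) and Adamts5 ran from -0.66 (without control 4) to 0.41 (without control 3). Adam15 had 0.030 without the 3 mice with skeletal muscle transcripts. DESeq2 called 219 genes and 4 members, with 5 members higher at an unadjusted p under 0.05. The 1 gene that passed limma's adjusted threshold became 0 with edgeR, without the filter, without the trend, with the replicate block, with the skeletal muscle covariate, without the 3 mice and without any single mouse (range 0 to 0). Leaving out single mice gave 3 to 5 members lower and 2 to 5 higher at an unadjusted p under 0.05. Adamts4 was not counted without control 3, control 5, Ntsr2 AKO 4 or Ntsr2 AKO 5, and Adamtsl5 was not counted without control 4 or Ntsr2 AKO 5. Members counted after leaving out some mouse but not with all 6 were Adam9, Adamts9, Mmp8, Mmp25 and Timp1 (lower) and Adamts10, Adamts12, Mmp9 and Mmp11 (higher). Adamts4 was also lost with edgeR, a pseudocount of 5, no filter, no trend and the skeletal muscle covariate. Without the 3 mice, 1 was lower (Mmp25) and 1 higher (Mmp9) in a comparison of 2 mice with 1, in which the single Ntsr2 AKO mouse is assumed to vary like the controls. The cause was not tested.

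The replicate numbers 3, 4 and 5 occur in both groups. Deviations from the group mean correlated at 0.45, -0.24 and 0.41 between same-numbered mice, and from -0.52 to 0.26 between differently numbered ones. These few values cannot settle whether the numbers pair the mice, and the main fit treated them as unpaired. With the replicate block, 4 members were lower and 6 higher at an unadjusted p under 0.05, the latter adding Adam23, Adamtsl1 and Mmp9.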
